A study of Mus musculus with 40 samples.

Results

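The genes described here are 10 members of the antioxidant programme linked to the transcription factor NRF2: its own gene Nfe2l2 and 9 genes listed as its targets, Nqo1, Aldh3a1, Gclc, Gclm, Hmox1, Txnrd1, Srxn1, Slc7a11 and Gpx2. They were named by symbol, and each was matched to its Ensembl identifier, which gave 10 of the 55359 genes in the count files. RNA was sequenced from the right kidney of each of 40 male C57BL/6 mice, and the mice formed 8 groups of 5. The control mice received the sesame oil vehicle, and the other 7 groups received 0.03, 0.1, 0.3, 1, 3, 10 or 30 µg/kg 2,3,7,8-tetrachlorodibenzo-p-dioxin (TCDD, the ligand that defines dioxin toxicity) in that oil. Every mouse was gavaged at intervals of 4 days, 7 times over 28 days, from postnatal day 30 to day 58. No transgene or second treatment is named for any group, the mice are of a single sex and strain, and a whole kidney mixes many cell types. In such bulk RNA, fewer cells of a type and less RNA per cell cannot be told apart.

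NRF2 is held in the cytoplasm and passed to the proteasome by KEAP1, an adaptor of a CUL3 and RBX1 ubiquitin ligase. Oxidants and electrophiles modify KEAP1, NRF2 then accumulates, enters the nucleus and binds antioxidant response elements as a dimer with a small MAF protein, while BACH1 occupies many of the same sites as a repressor. TCDD acts through the aryl hydrocarbon receptor, which binds dioxin response elements as a dimer with ARNT. Nqo1 and Aldh3a1 belong to the classic battery of genes driven by that receptor, and Nfe2l2 has also been described as one of its targets, so both pathways can reach these genes.

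Promoters in the RefSeq table (build GRCm38.p6) were found for 7 of the 10 members, in 9 windows of 300 bases that run from 250 bases before to 50 bases after a start site. Aldh3a1, Gclc and Hmox1 were not matched. The 2 motifs searched, on both strands, were the antioxidant response element core TGACNNNGC and the dioxin response element core GCGTG, and no matches of the 2 overlapped. The first was found in Nfe2l2 (at position -240 from the start), Gclm (-134), Txnrd1 (-92, in its 2nd window) and Srxn1 (28). These are 4 of the 7 members and 4 of the 9 windows, against 14% of all 27025 genes and 12.4% of all 32851 windows in the table. The other was found in Gclm, Txnrd1 and Srxn1. These are 3 of the 7 members and 5 of the 9 windows, against 35.2% of all genes and 32.4% of all windows. Neither was found in the windows of Nqo1, Slc7a11 and Gpx2. The bases before the start are printed below for 3 members that were higher at 30 µg/kg and hold an antioxidant core (Nfe2l2, Txnrd1 and Srxn1), for 1 that holds cores of both kinds and was not called (Gclm), and for 1 that rose more than these and holds neither (Nqo1). Capitals mark the matched cores, on either strand, and a match is a run of letters, not a bound site. The stretches lie at chr2:75704664-75704913 (minus strand), chr10:82858956-82859205 (plus), chr2:152105274-152105523 (plus), chr3:122245307-122245556 (plus) and chr8:107403206-107403455 (minus). The match of Srxn1 to TGACNNNGC lies past its start, in the short stretch at chr2:152105544-152105567 (plus) printed last. Other spellings of the antioxidant response element were not searched, so any of them in these stretches stay in lower case.
Nfe2l2: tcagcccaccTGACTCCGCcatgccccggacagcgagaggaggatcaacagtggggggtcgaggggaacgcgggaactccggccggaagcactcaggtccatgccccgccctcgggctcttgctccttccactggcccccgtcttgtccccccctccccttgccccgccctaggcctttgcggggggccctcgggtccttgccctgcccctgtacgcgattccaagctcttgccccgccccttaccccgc
Txnrd1: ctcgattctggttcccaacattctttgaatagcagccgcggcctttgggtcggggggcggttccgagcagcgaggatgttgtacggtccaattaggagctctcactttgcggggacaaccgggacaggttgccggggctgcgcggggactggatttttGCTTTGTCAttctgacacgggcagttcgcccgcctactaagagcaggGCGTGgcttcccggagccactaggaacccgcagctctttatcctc
Srxn1: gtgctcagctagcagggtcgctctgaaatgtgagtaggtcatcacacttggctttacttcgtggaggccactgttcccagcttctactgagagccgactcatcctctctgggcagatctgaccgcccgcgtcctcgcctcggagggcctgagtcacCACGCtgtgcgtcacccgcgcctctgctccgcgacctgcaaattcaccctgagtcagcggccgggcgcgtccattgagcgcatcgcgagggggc
Gclm: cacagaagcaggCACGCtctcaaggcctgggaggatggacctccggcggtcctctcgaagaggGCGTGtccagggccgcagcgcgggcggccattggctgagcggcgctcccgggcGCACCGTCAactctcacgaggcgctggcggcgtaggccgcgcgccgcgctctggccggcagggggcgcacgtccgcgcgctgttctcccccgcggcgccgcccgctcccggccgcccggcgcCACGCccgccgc
Nqo1: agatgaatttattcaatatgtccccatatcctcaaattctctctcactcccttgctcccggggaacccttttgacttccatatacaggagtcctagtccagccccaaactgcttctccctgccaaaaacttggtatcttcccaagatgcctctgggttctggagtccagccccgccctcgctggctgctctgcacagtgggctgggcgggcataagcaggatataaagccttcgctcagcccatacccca
Srxn1 past the start: agtgggcaGCTAGGTCAgagtgag

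Each library held 15278423 to 25575317 reads counted to genes, and 7.31% to 11.3% of them were mitochondrial. Levels are given as counts per 1000000 reads (CPM), after scaling between libraries, and changes as log2 fold changes from a fit of edgeR's quasi-likelihood model to all 40 libraries. A gene was called where its Benjamini-Hochberg adjusted p over the 17345 genes tested was under 0.05. The proximal tubule genes Slc34a1 and Lrp2, which mark kidney, averaged 7208 and 3125 CPM in the vehicle group. Replicates 1 and 2 of the vehicle group stood apart from the other 3: the summed level of 3 genes of the S3 segment of the proximal tubule (Slc7a13, Slc22a7 and Cyp7b1) was 361 and 427 CPM in them, against 1168 to 1316 in the other 3 and 1078 to 1513 in all 30 libraries of the 0.03 to 10 µg/kg groups. Other sums parted them too: proximal tubule (14985 and 15516 CPM, against 11871 to 12457 in the other 3) and urothelial genes (32.6 and 39.2, against 16.8 to 23.5) were higher. Macrophage (102 and 85.6, against 131 to 144) and liver genes (197 and 205, against 338 to 378) were lower. Intercalated cell genes did not part them (223 and 236, against 217 to 226). Member results that these 2 libraries move are given with and without them, the latter from a fit that tested 18002 genes. Cyp1a1, the usual gauge of aryl hydrocarbon receptor activity, stood at 2.37 ± 1.25 CPM (SD, n = 5) in the vehicle group and reached 2537 ± 436 CPM at the top dose, and edgeR called it at every dose from 0.3 µg/kg up.

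Of the 10 genes, 8 were expressed well enough to be tested. None was called at 0.03, 0.1 or 0.3 µg/kg, where edgeR called 0%, 0% and 0.00577% of all genes. At an unadjusted p under 0.05 the counts at these doses were 1, 2 and 3 of 8, against 5.67%, 5.53% and 5.23% of all genes, and DESeq2 called 0 at each. Without vehicle replicates 1 and 2 they were 0, 0 and 1 of 8, against 2.59%, 2.26% and 3.1% of all genes. Aldh3a1 was higher at 1 µg/kg, where edgeR called 0.513% of all genes (0.507% higher, 0.00577% lower). Nqo1 joined it at 3 µg/kg, so that 2 of 8 were higher, against 1.09% of all genes (1.03% higher, 0.0634% lower). Nfe2l2 was the third at 10 µg/kg, against 4.82% of all genes (3.82% higher, 0.997% lower). The top dose added Hmox1, Txnrd1 and Srxn1, giving 6 of 8 higher, against 15.9% of all genes (8.39% higher, 7.55% lower). No member was called lower at any dose. The median log2 fold change of the 8 was 0.16, 0.11, 0.11, 0.16, 0.25, 0.41 and 0.52 from the lowest dose to the highest, while the median over all genes stayed between -0.01 and 0.01. Without vehicle replicates 1 and 2 the medians of the same 8 were 0.04, 0.05, 0.01, 0.11, 0.24, 0.33 and 0.49. These 7 comparisons share the same 5 vehicle mice. The same 6 genes rose with dose rank in a trend test over all groups, which called 19.8% of all genes (11% rising, 8.84% falling). Without the 30 µg/kg group the trends of Hmox1, Txnrd1 and Srxn1 were not called (edgeR adjusted p = 0.378, 0.484 and 0.0825). Hmox1 alone of the 8 was higher at 30 than at 10 µg/kg, where 2.7% of all genes were called (1.19% higher, 1.52% lower).

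**Figure D1:**
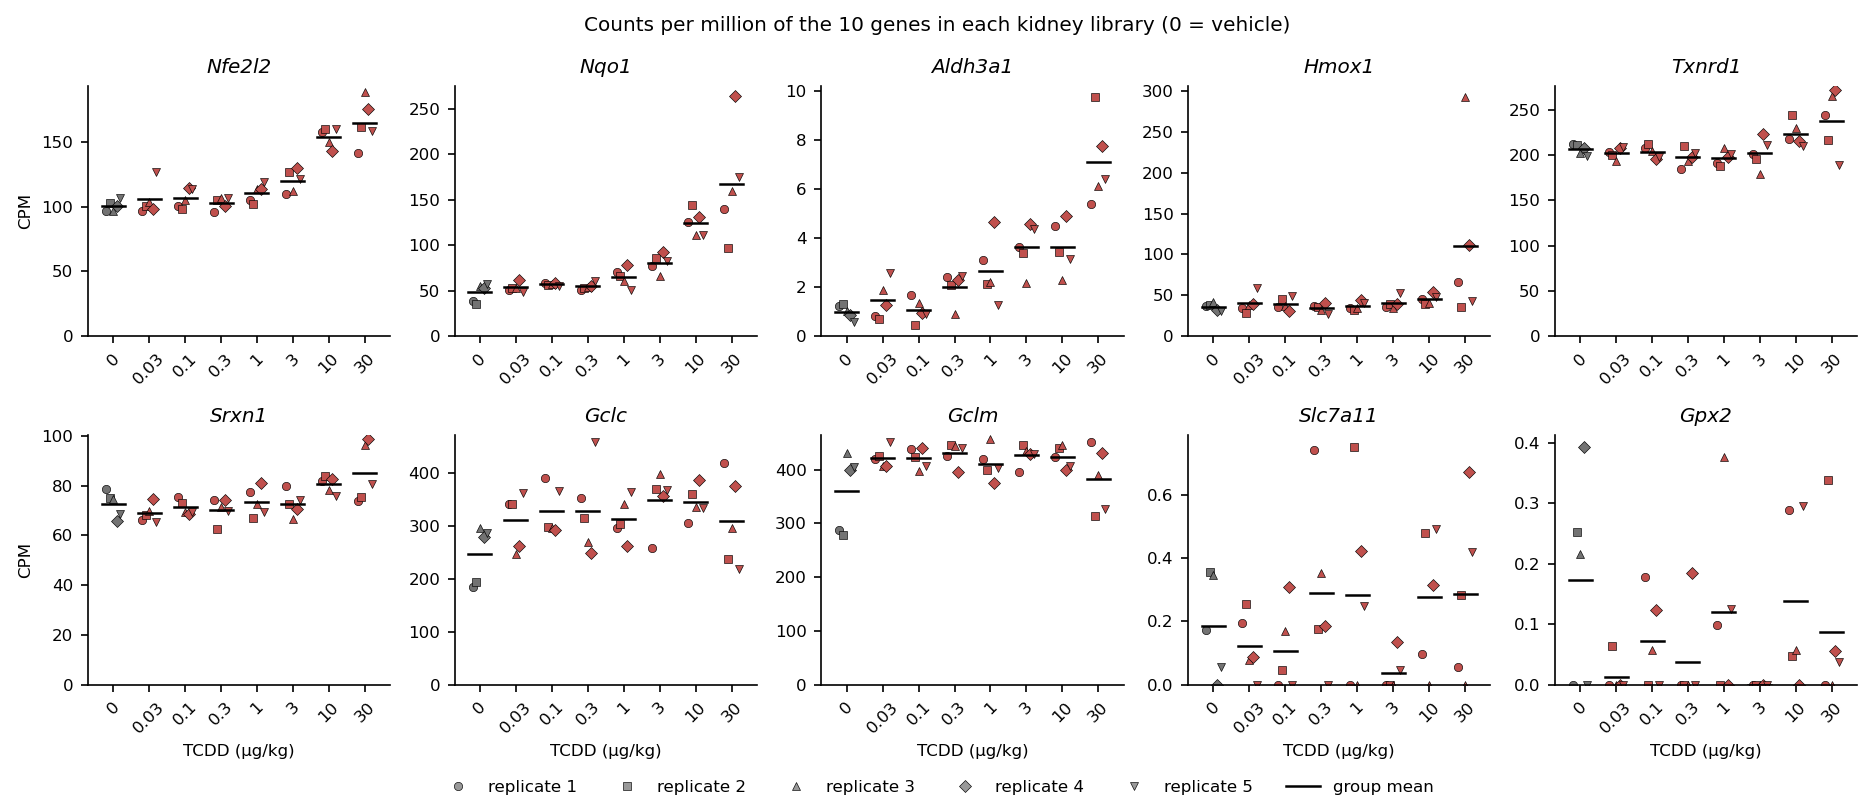
CPM of the 10 genes in each library against TCDD dose (0 is vehicle), with 5 mice per group, a symbol for each replicate and a bar at the group mean. Nfe2l2 and Nqo1 lie above all vehicle mice from 3 µg/kg up, Hmox1 is called at 30 µg/kg only and is uneven there, and Slc7a11 and Gpx2 stay under 1 CPM.

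Nfe2l2 (ENSMUSG00000015839), which encodes NRF2 itself, rose at the 2 upper doses with little spread between mice. In the 5 vehicle mice it stood at 96.9, 103, 97, 101 and 107 CPM, and at 10 µg/kg at 158, 160, 150, 143 and 160 CPM. The top dose gave 142, 162, 189, 176 and 159 CPM. Every mouse at 3, 10 and 30 µg/kg lay above every vehicle mouse, and the 10 and 30 µg/kg groups overlapped. The log2 fold change was 0.61 ± 0.07 (SE, edgeR adjusted p = 3.56e-08) at 10 µg/kg and 0.71 ± 0.07 (5.25e-10) at 30 µg/kg, a rise from 101 ± 4.19 to 165 ± 17.8 CPM (SD, n = 5 per group). The further step from 10 to 30 µg/kg was 0.10 ± 0.07 and was not called (edgeR adjusted p = 0.577). At 3 µg/kg the change of 0.25 ± 0.07 missed the threshold (edgeR adjusted p = 0.07), although the ranges did not overlap (110 to 130 CPM). It passed by a small margin with DESeq2 (adjusted p = 0.0438), with the run of label numbers as a covariate (edgeR, 0.0471), from the other strand's column (0.0308) and without replicate 1 of that dose (0.0464), and it did not without the 2 low vehicle libraries (0.387). The calls at 10 and 30 µg/kg held when any single library of the groups compared, or both low vehicle libraries, were left out. Nfe2l2, Nqo1 and Aldh3a1 were the members with every 30 µg/kg library above every vehicle library, as were 3.59% of all genes tested. Such a share was not taken for the other doses or between doses, so non-overlap there has no background beside it.

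Nqo1 (ENSMUSG00000003849) encodes a reductase that turns quinones into hydroquinones by a transfer of 2 electrons. Its 5 vehicle values were 38.8, 35.8, 54.7, 53.4 and 57.7 CPM, with replicates 1 and 2 again the lowest. At 3 µg/kg the mice stood at 77, 85.8, 66, 92.6 and 83.1 CPM, and at 10 µg/kg at 126, 144, 111, 131 and 111 CPM. From 3 µg/kg up no mouse overlapped the vehicle group. At 30 µg/kg the values spread out to 140, 96.5, 160, 264 and 175 CPM, so that the lowest of them fell under the whole 10 µg/kg group while the highest was far above it. The log2 fold changes were 0.75 ± 0.16 (SE) at 3 µg/kg, 1.38 ± 0.16 at 10 µg/kg and 1.80 ± 0.16 at 30 µg/kg, with edgeR adjusted p-values of 0.00709, 2.43e-07 and 7.54e-10. Without the 2 low vehicle libraries the change at 3 µg/kg was 0.55 and was no longer called (edgeR adjusted p = 0.261), whereas at 30 µg/kg it was 1.59 (1.23e-07). The difference between 30 and 10 µg/kg, 0.42 ± 0.16, was not called (edgeR adjusted p = 0.16), but it became 0.57 (0.00975) when replicate 2 of the 30 µg/kg group was left out and 0.19 (0.631) without replicate 4.

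Aldh3a1 (ENSMUSG00000019102), a dehydrogenase that oxidises medium-chain and aromatic aldehydes, was scarce in the kidney and was called at the lowest dose of all members. The vehicle mice stood at 1.21, 1.32, 1.04, 0.855 and 0.567 CPM, which is 10 to 26 reads per library. At 0.3 µg/kg the mice stood at 2.41, 2.1, 0.882, 2.29 and 2.43 CPM, with 4 of 5 above all vehicle mice. That change, 1.01 ± 0.35 (SE) on the log2 scale, was not called (edgeR adjusted p = 0.899). At 1 µg/kg the values were 3.1, 2.14, 2.19, 4.66 and 1.25 CPM, and 4 of 5 lay above all vehicle mice. The 30 µg/kg mice held 5.4, 9.73, 6.1, 7.75 and 6.42 CPM. No mouse at 3, 10 or 30 µg/kg overlapped the vehicle group, and no mouse at 30 µg/kg overlapped the 10 µg/kg group, which ran from 2.27 to 4.9 CPM. The log2 fold change was 1.41 ± 0.35 (SE, edgeR adjusted p = 0.0357) at 1 µg/kg, 1.85 ± 0.34 (0.000716) at 3 µg/kg, 1.86 ± 0.34 (0.000171) at 10 µg/kg and 2.81 ± 0.34 (5.54e-08) at 30 µg/kg. The step from 10 to 30 µg/kg, 0.95 ± 0.31, missed the threshold (edgeR adjusted p = 0.0831). Counted from the other strand's column alone, with fewer reads, Aldh3a1 was not called at 1, 3 or 10 µg/kg (edgeR adjusted p = 0.678, 0.13 and 0.0994).

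The call of Aldh3a1 at 1 µg/kg was lost on leaving out any of 6 single libraries (vehicle replicates 1, 3, 4 and 5, and replicates 1 and 4 of that dose), with log2 fold changes between 1.12 and 1.59 and edgeR adjusted p-values between 0.0124 and 0.285 over the 10 fits that left 1 out. Without the 2 low vehicle libraries it was 1.68 (edgeR adjusted p = 0.0693). Replicate 4 held the highest Aldh3a1 and Nqo1 of its group (4.66 and 78.4 CPM). It also held 647 CPM over 4 adrenal cortex genes, against 3.2 to 6.02 CPM in the other 4 mice of the group, and 231 CPM over 7 macrophage genes, against 151 to 170 CPM. A similar adrenal sum, 640 CPM, was found in replicate 1 of the 0.03 µg/kg group, where Aldh3a1 stood at 0.825 CPM and Nqo1 at 51.1 CPM. The part of these other cells in the Aldh3a1 result was not tested.

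**Figure D2:**
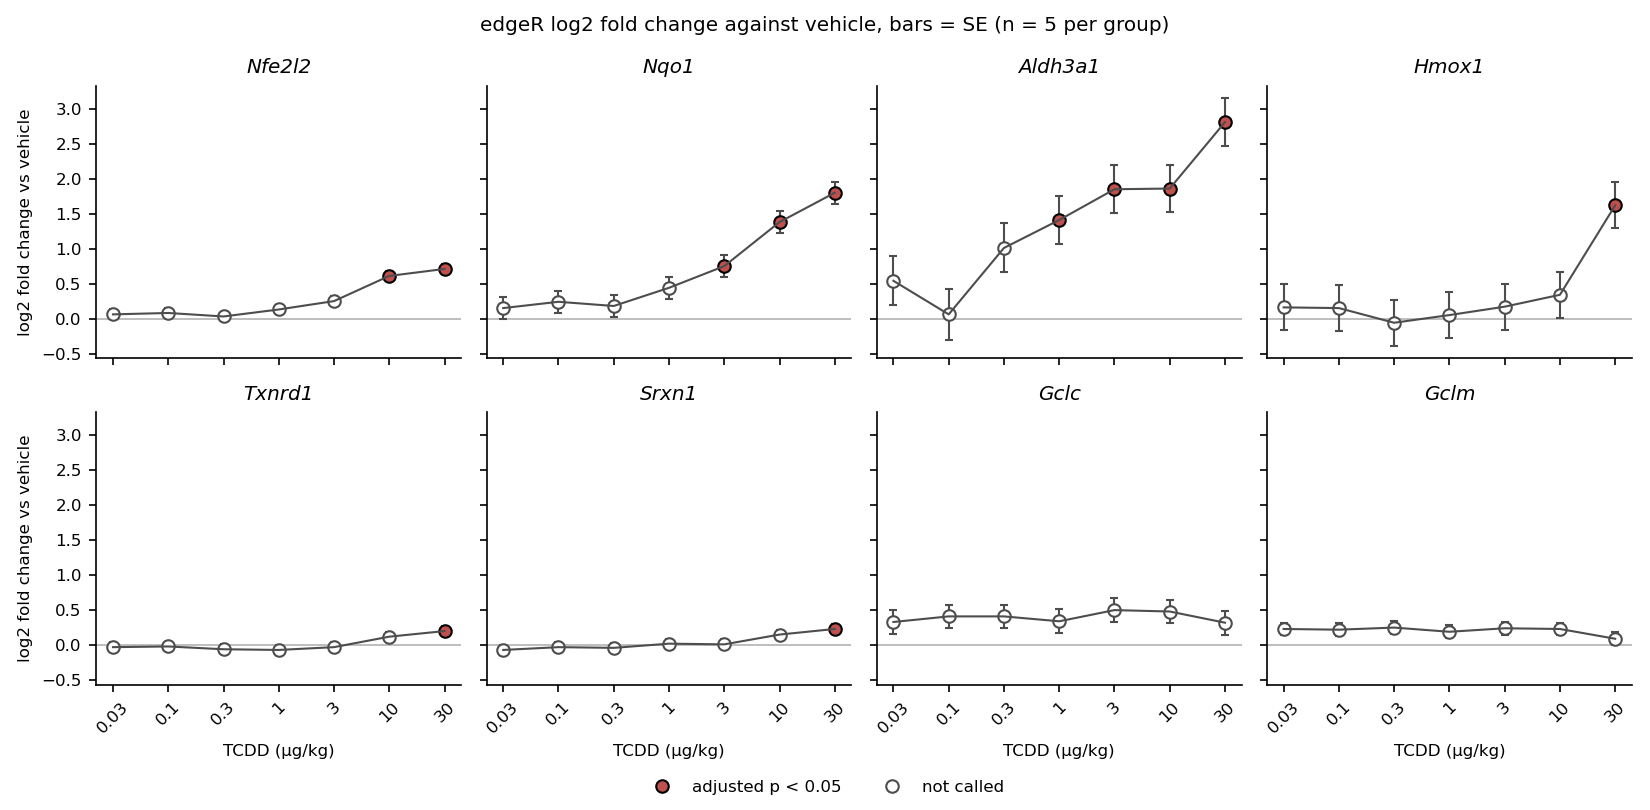
edgeR log2 fold change against vehicle (y axis) at each TCDD dose in µg/kg (x axis) for the 8 tested genes, with bars for the SE and filled points where adjusted p was under 0.05. Aldh3a1 reaches 2.81 and Nqo1 1.80 at 30 µg/kg, while Gclc and Gclm are called at no dose, and without vehicle replicates 1 and 2 Gclm lies between -0.11 and 0.06.

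Hmox1 (ENSMUSG00000005413), the inducible heme oxygenase that opens the heme ring to biliverdin, iron and carbon monoxide, was called at 30 µg/kg alone and varied most between mice there. The vehicle group held 37.3, 38.2, 41.2, 31.8 and 30.1 CPM, and the 10 µg/kg group 44.8, 39.4, 40.3, 53.9 and 47.7 CPM. The 30 µg/kg mice stood at 66.3, 35.2, 293, 112 and 43.3 CPM. Thus 4 of 5 mice lay above every vehicle mouse, replicate 2 lay within the vehicle range, and replicate 3 was far above any other mouse of the study. The log2 fold change was 1.62 ± 0.33 (SE, edgeR adjusted p = 0.00072), and it fell to 0.84 (0.00903) without replicate 3. Against 10 µg/kg the change was 1.28 ± 0.33 (edgeR adjusted p = 0.0259), and that call was lost in 6 of the 10 fits that left 1 library out: replicates 1, 2, 3 and 5 of 10 µg/kg and replicates 3 (0.50, adjusted p = 0.41) and 4 of 30 µg/kg. Fitted on the 2 groups alone, the call at 30 µg/kg was lost too (edgeR adjusted p = 0.154).

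Markers of other cells differed between the same mice. The summed S3 proximal tubule genes stood at 1019, 459, 52, 265 and 307 CPM in replicates 1 to 5 of the 30 µg/kg group, so the mouse with the highest Hmox1 held the lowest S3 sum of all 40 libraries, and 2 of the 3 S3 genes were called lower at 30 µg/kg. The 7 macrophage genes summed to 85.6 to 144 CPM in the vehicle group, 151 to 231 CPM at 1 µg/kg, 167 to 203 CPM at 3 µg/kg, 201 to 248 CPM at 10 µg/kg and 177 to 236 CPM at 30 µg/kg. Every mouse from 1 µg/kg up, the dose at which Aldh3a1 was first called, thus lay above every vehicle mouse. At 30 µg/kg 6 of 7 were called higher (Adgre1 by 1.44 and C1qb by 1.35 on the log2 scale), with the lowest sum of the 30 µg/kg group in the mouse with the highest Hmox1. The 4 urothelial genes summed to 16.8 to 39.2 CPM in the vehicle mice and 45 to 100 CPM at 30 µg/kg, with 3 of 4 called higher, and none of the markers of these 3 lists was at 0 on average in either group. Endothelial genes (4, of which 3 were called higher) summed to 350 to 429 CPM in vehicle mice, 486 to 531 CPM at 10 µg/kg and 494 to 563 CPM at 30 µg/kg. Podocyte genes (3, of which 2 were called higher) summed to 217 to 297, 328 to 428 and 310 to 422 CPM in the same groups. The 7 proximal tubule genes, of which 1 was called higher and 3 lower, summed to 11871 to 15516 CPM in vehicle mice and 8114 to 14032 CPM at 30 µg/kg. The macrophage, urothelial, endothelial and podocyte sums at 30 µg/kg did not overlap vehicle, in the direction of the 6 members called at that dose. The part of these cell types in the changes of the 10 genes was not tested.

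**Figure D3:**
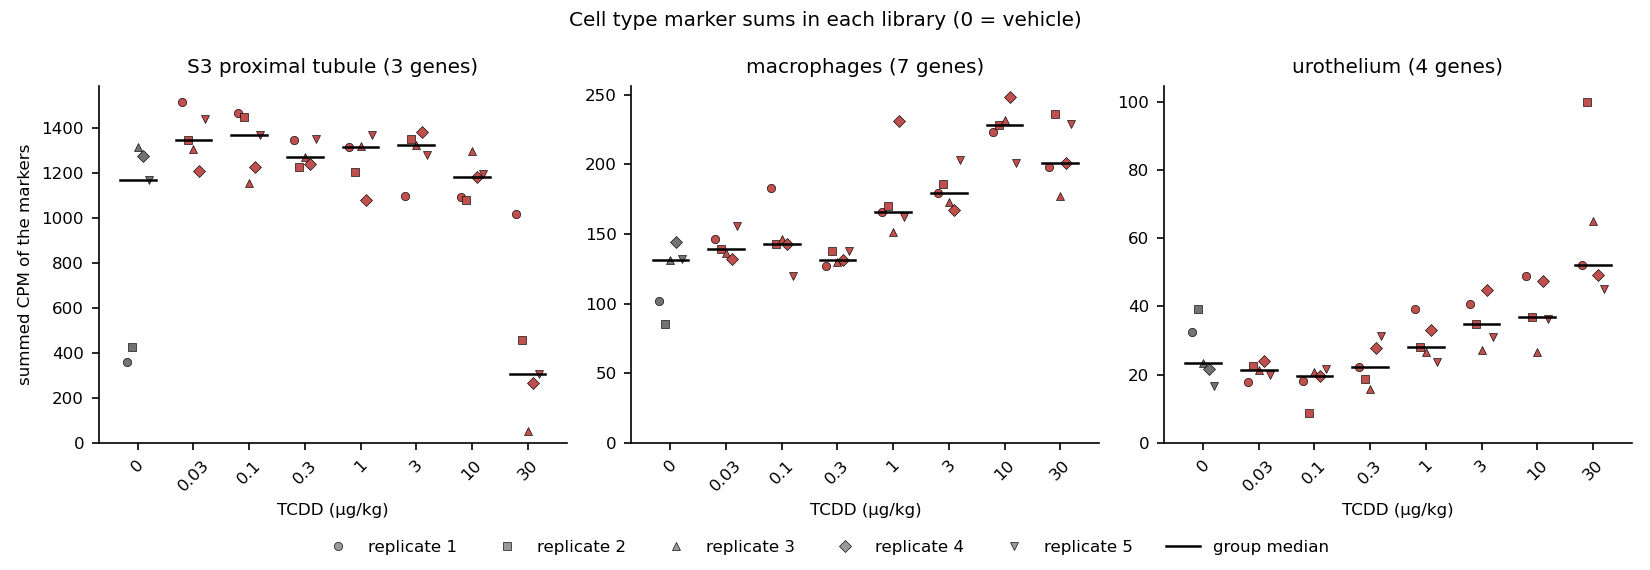
Summed CPM of marker genes in each library against TCDD dose (0 is vehicle), with a symbol for each replicate and a bar at the group median, for the S3 proximal tubule, macrophages and urothelium. Vehicle replicates 1 and 2 (361 and 427 CPM) lie with the 30 µg/kg group in the S3 panel, and the macrophage sum is above all vehicle mice at 1, 3, 10 and 30 µg/kg.

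Txnrd1 (ENSMUSG00000020250), the cytosolic selenoprotein that keeps thioredoxin reduced with NADPH, and Srxn1 (ENSMUSG00000032802), which repairs hyperoxidised peroxiredoxins, changed little and were called only at 30 µg/kg. Txnrd1 stood at 213, 211, 203, 208 and 199 CPM in vehicle and at 245, 217, 266, 272 and 189 CPM at 30 µg/kg. In 4 mice it exceeded the vehicle range and in replicate 5 it lay under it. Srxn1 stood at 78.8, 74.9, 74.6, 65.8 and 68.6 CPM in vehicle and at 73.7, 75.5, 96.5, 98.7 and 80.7 CPM at 30 µg/kg, where replicates 3, 4 and 5 exceeded the vehicle range. Replicates 3 and 4 were thus the highest of the group in Hmox1, Txnrd1, Srxn1 and Nfe2l2 alike. The log2 fold changes were 0.20 ± 0.07 (SE, edgeR adjusted p = 0.0375) for Txnrd1 and 0.23 ± 0.07 (0.0246) for Srxn1. Leaving out single libraries ended the call of Txnrd1 in 7 of 10 fits (vehicle replicates 2 to 5 and replicates 1, 3 and 4 of 30 µg/kg) and that of Srxn1 in 4 of 10 (vehicle replicates 4 and 5 and replicates 3 and 4 of 30 µg/kg), with edgeR adjusted p-values up to 0.188 and 0.146. Txnrd1 was also not called without both low vehicle libraries (0.22, edgeR adjusted p = 0.0658). From 0.03 to 3 µg/kg the log2 fold changes of both lay between -0.07 and 0.02. At 10 µg/kg they were 0.12 for Txnrd1 (edgeR adjusted p = 0.433) and 0.15 for Srxn1 (0.296). There 4 of 5 mice for Txnrd1 and 3 of 5 for Srxn1 lay above every vehicle mouse. The step from 10 to 30 µg/kg was 0.08 for each and was not called (edgeR adjusted p = 0.648 and 0.709).

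Gclc (ENSMUSG00000032350) and Gclm (ENSMUSG00000028124) encode the catalytic and the modifier subunit of glutamate-cysteine ligase, the rate-limiting enzyme of glutathione synthesis, and neither was called at any dose. Gclc stood at 184, 193, 295, 278 and 286 CPM in vehicle and at 418, 237, 295, 375 and 219 CPM at 30 µg/kg. Gclm stood at 287, 279, 431, 400 and 405 CPM in vehicle and at 452, 313, 390, 431 and 327 CPM at 30 µg/kg. The 30 µg/kg and vehicle groups overlapped for both genes, and vehicle replicates 1 and 2 were the lowest vehicle mice for each. At 10 µg/kg all 5 Gclc values (305 to 387 CPM) lay above the highest vehicle value of 295 CPM. The log2 fold changes of both genes against vehicle were positive at all 7 doses. They ran from 0.32 to 0.50 for Gclc and from 0.09 to 0.25 for Gclm. No edgeR adjusted p of the fit to all 40 libraries was under 0.121. Gclm was called at 10 µg/kg in 1 of the 10 fits that left 1 library out (without vehicle replicate 3, edgeR adjusted p = 0.0458). The differences at 30 µg/kg were 0.32 ± 0.17 (SE, edgeR adjusted p = 0.224) for Gclc and 0.09 ± 0.09 (0.589) for Gclm. Without vehicle replicates 1 and 2 the differences were lower at every dose, between 0.11 and 0.29 for Gclc and at 0.03, 0.03, 0.06, -0.01, 0.05, 0.04 and -0.11 for Gclm from the lowest dose to the highest. The edgeR adjusted p-values at 30 µg/kg were then 0.798 for Gclc and 0.437 for Gclm, whose sign had changed. The counts were made without regard to strand, and 4.71% of Gclm's exon length is shared with the genes Gm17494 and Gm6061. Reads assigned to more than 1 gene were set aside as ambiguous and counted to none.

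Gclc and Gclm varied together between mice of the same dose. Of the 28 pairs of the 8 tested members, compared by each library's deviation from its group mean in log2 CPM, this was the single pair called. Over 40 libraries Pearson's r was 0.73 (permutation within groups, two-sided p = 1e-05, the smallest that 100000 permutations can give, adjusted over the 28 pairs to 0.00028). Spearman's rho was 0.69 (permutation p = 6e-05, adjusted 0.00168). Without the 2 libraries farthest from the median of Gclc, r was 0.74. It was 0.68 (permutation p = 0.00047, adjusted 0.0132) without vehicle replicates 1 and 2, and 0.64 (permutation p = 0.00063, adjusted 0.0176) without the 30 µg/kg group, with adjusted p-values of rho of 0.0694 and 0.0624. Within 2 runs of label numbers, which the labels do not call batches, r was 0.76. Hmox1 with Srxn1 had the next smallest p (r = 0.53, permutation p = 0.0375) and was not called after adjustment (0.261).

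**Figure D4:**
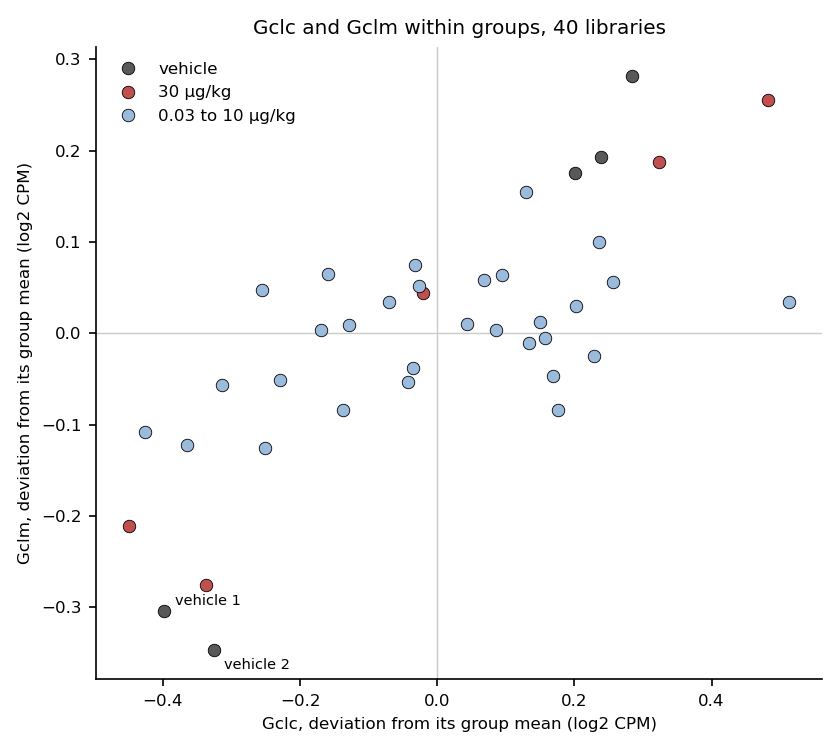
Deviation of Gclm (y axis) against that of Gclc (x axis) from the mean of the library's own group, in log2 CPM, for 40 libraries coloured by dose. The points rise together (r = 0.73), and vehicle replicates 1 and 2 hold the lowest Gclm deviations of all 40 libraries.

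Slc7a11 (ENSMUSG00000027737), the cystine carrier of the cystine and glutamate exchanger, and Gpx2 (ENSMUSG00000042808), a glutathione peroxidase known mainly from the gut lining, were close to absent and were not tested in the main fit. Slc7a11 drew 19 reads over the 5 vehicle libraries and 29 over those of 30 µg/kg, with at most 13 reads in any library. Gpx2 drew 16 reads over the vehicle libraries, 8 over those of 30 µg/kg and 0 over those of 3 µg/kg, with at most 6 reads in any library. Their CPM averaged 0.186 ± 0.162 and 0.173 ± 0.171 (SD, n = 5) in vehicle. In every group of either gene at least 2 libraries held 3 reads or fewer, so a small difference between doses was not detectable at this depth. With no filter on low counts, edgeR called neither at 30 µg/kg (Slc7a11 0.58 on the log2 scale, adjusted p = 0.907, and Gpx2 -0.94, 0.843).

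To compare the genes with each other, CPM was divided by exon length in kilobases. In vehicle kidneys Gclc (65.6 ± 14.3 CPM per kb, SD, n = 5) and Gclm (57.3 ± 11.4) led and overlapped each other. Below them, and apart from them, came a group of near levels in which each overlapped the next: Nqo1 at 31, Txnrd1 at 29.2, Nfe2l2 at 26.6, Srxn1 at 25.7 and Hmox1 at 20.4 CPM per kb. Aldh3a1 at 0.513 CPM per kb was lower than these without overlap, and Gpx2 (0.0536) and Slc7a11 (0.0134) were lowest and overlapped. At 30 µg/kg the order of the means had Nqo1 at the top (108 ± 39.7 CPM per kb), ahead of Gclc (82 ± 22.9), Hmox1 (62.8 ± 60.8) and Gclm (60.8 ± 9.79), each of which overlapped its neighbour. Aldh3a1 stood below the other 7 tested genes at 3.64 ± 0.88 CPM per kb.

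The other genes of the pathway, 77 in 9 lists of which 75 could be tested, were called only at the 2 upper doses. At 10 µg/kg 8 were higher and 1 lower, against 3.82% and 0.997% of all genes. At 30 µg/kg 30 were higher and 9 lower, against 8.39% and 7.55% of all genes, and the median log2 fold change of the 75 was 0.20, against 0.01 over all genes. From 0.03 to 3 µg/kg edgeR called none of the 75. From the lowest of these doses to the highest, 9, 7, 6, 9 and 9 of them had an unadjusted p under 0.05. The shares of all genes were 5.67%, 5.53%, 5.23%, 7.1% and 8.95%. These counts take rises and falls together and were not taken again without vehicle replicates 1 and 2. The median log2 fold change of the 75 was -0.01, -0.02, 0.00, -0.03 and -0.02 at these doses. The count at 30 µg/kg was 20 (18 higher, 2 lower) when the fit used the 2 groups alone, where the count over all genes went from 2766 to 969. Without vehicle replicates 1 and 2 it was 34 (28 higher, 6 lower).

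Among the 12 regulators of NRF2, 5 were higher and 2 lower at 30 µg/kg. Maff, a small MAF partner, averaged 2.13 ± 0.6 CPM in vehicle mice and 6.58 ± 3.48 CPM in these (a log2 rise of 1.64, edgeR adjusted p = 0.000568), and Sqstm1, the autophagy receptor p62 that can take KEAP1 out of play, rose by 0.34 (0.000922). The other 3 that were higher were Mafg, Mafk and Bach1. Fbxw11, an F-box protein of the other ligase that degrades NRF2, fell by 0.31 on the log2 scale, and Rbx1, the RING subunit of the KEAP1 ligase, fell by 0.24. Keap1 itself, named outside the rule on the smallest p-values, averaged 39.3 ± 1.24 CPM in the controls and 39.6 ± 2.17 CPM in the 30 µg/kg mice (log2 fold change 0.01, edgeR adjusted p = 0.963).

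In glutathione synthesis and use, 3 of 9 genes were higher and 2 lower at 30 µg/kg. Gsr, which reduces oxidised glutathione, rose from 198 ± 12.8 to 308 ± 55 CPM (0.64, edgeR adjusted p = 1.07e-07) and was already higher at 10 µg/kg (0.47, 5.21e-05). Gpx3, the plasma glutathione peroxidase made in the proximal tubule, rose by 0.33, as did Slc3a2, the heavy chain that partners Slc7a11. Gss, which completes glutathione, fell by 0.46, and Ggt1, the brush border enzyme that cleaves it, fell by 0.45 on the log2 scale. Of 6 thioredoxin and peroxiredoxin genes only Sesn2 was called (0.99, edgeR adjusted p = 0.00345), while Prdx1 (-0.16), Txn2 (-0.12) and Prdx6 (-0.08) were not. The NADPH enzymes were split: of 6, Pgd (0.46) and G6pdx (0.31) of the pentose phosphate pathway were higher, and Taldo1 (-0.28) of the same pathway and Me1 (-0.44), the malic enzyme, were lower.

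Among the heme and iron genes, 2 of 8 were higher at 30 µg/kg: Ftl1, the ferritin light chain (0.69, edgeR adjusted p = 0.00987), and Slc48a1, a heme transporter (0.26, 0.00634). Blvra, the biliverdin reductase that acts after Hmox1, was lower at 10 µg/kg (-0.30, edgeR adjusted p = 0.0088) and not called at 30 µg/kg (-0.16, 0.167), and Fth1 was not called (0.11). Of the 12 quinone, carbonyl and epoxide enzymes, 7 were higher and 1 lower. The carbonyl reductase Cbr3 rose from 1.14 ± 0.365 to 25.3 ± 27.3 CPM (4.47, edgeR adjusted p = 6.81e-07) and its relative Cbr1 from 40.4 ± 7.03 to 281 ± 186 CPM (2.80, 3e-08). Pir, an iron-binding nuclear protein, rose by 1.44 and Ugdh, which makes UDP-glucuronate, by 0.51, both being called at 10 µg/kg too. Akr1a1 was the lower gene of the list (-0.26).

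Glutathione transferases couple glutathione to electrophiles, and 6 of the 8 tested were higher at 30 µg/kg with none lower. Mgst1 (1.60), Gsta4 (1.42), Gsta2 (1.33) and Gsta3 (0.83) had the smallest p-values. Reads that mapped to several near-identical family members were counted to no gene, so such genes may be undercounted. The export pumps, which carry glutathione conjugates and organic anions out of the cell, had 3 of 5 higher: Abcc4 rose from 58 ± 13.4 to 343 ± 176 CPM (2.56, edgeR adjusted p = 1.36e-09), Abcc3 by 1.81 and Abcc2 by 0.52, while Abcc5 was not called (0.20). In the last list, of 9 other genes tied to NRF2, 1 was higher, Cat, the catalase (0.22), and 2 were lower, Sod2, the mitochondrial superoxide dismutase (-0.21), and the carboxylesterase Ces1g (-0.87). Ppargc1a was not called (0.25).

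**Figure D5:**
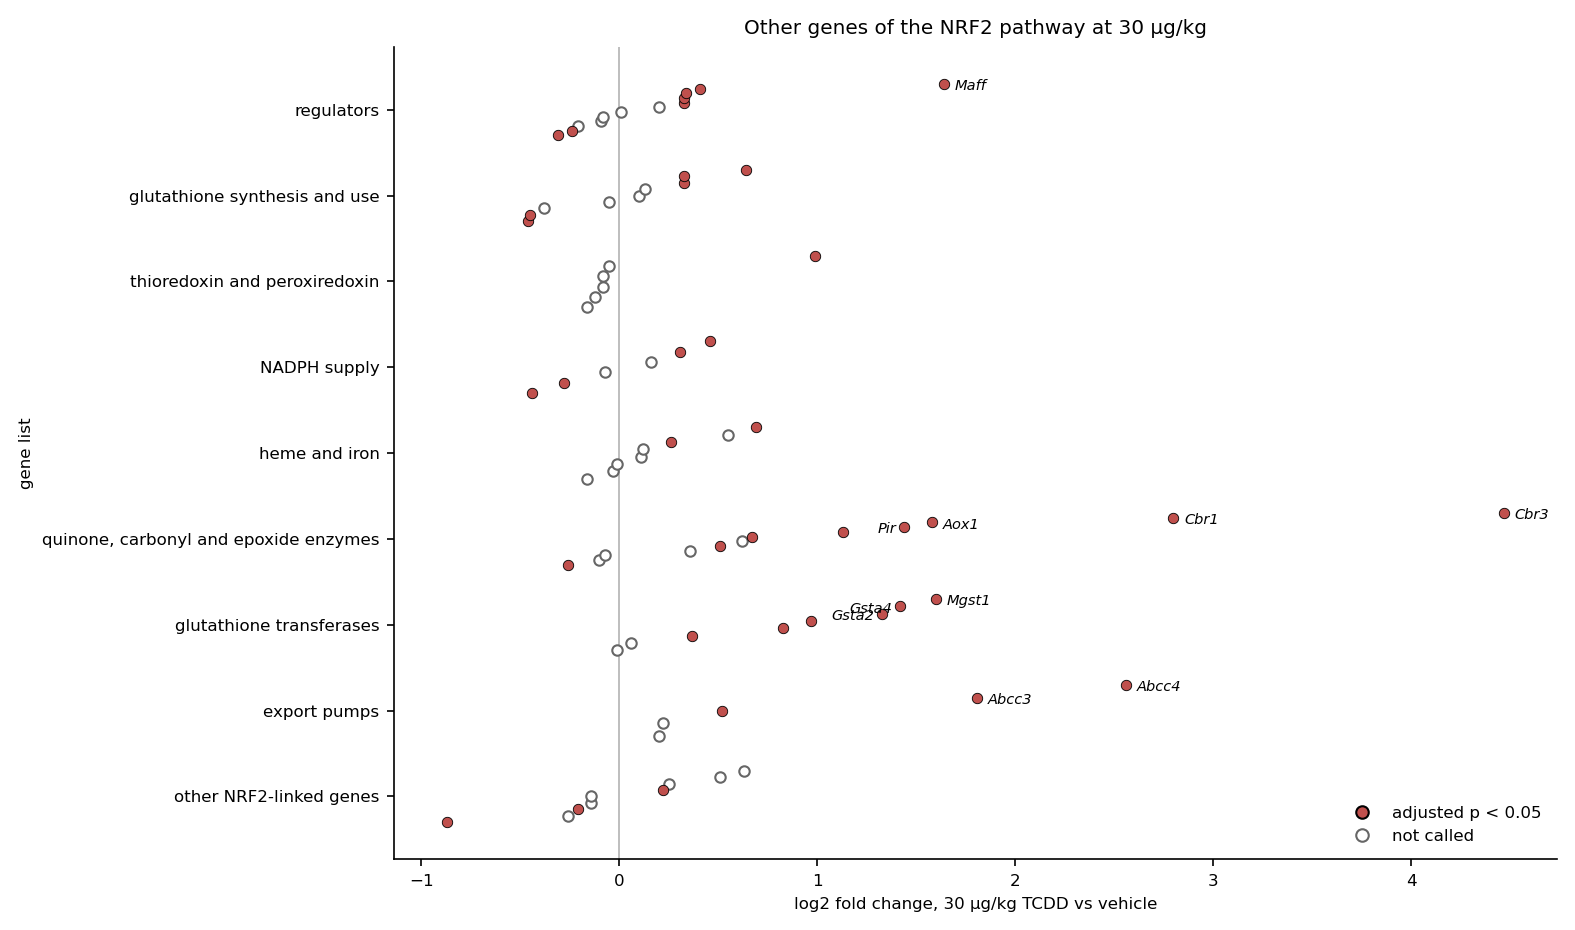
edgeR log2 fold change at 30 µg/kg against vehicle (x axis) of 75 other genes of the pathway, grouped in 9 lists (y axis), filled where adjusted p was under 0.05. Of these, 30 are higher and 9 lower, and the widest rises are those of Cbr3 (4.47), Cbr1 (2.80) and Abcc4 (2.56).

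For each member called at 30 µg/kg, the genes with the most similar dose profile were taken as those with the smallest mean absolute difference over the 7 log2 fold changes, which all share the vehicle group. Nqo1 was nearest to Peg3 (mean difference 0.115), Cdkn1a (0.116) and Grrp1 (0.134), and Peg3 stood at 0.86, 1.35 and 1.71 at 3, 10 and 30 µg/kg. Aldh3a1 was nearest to Cpn2 (0.257), Pirb (0.297) and 1700071M16Rik (0.314), and Hmox1 to Acot1 (0.105), Vnn1 (0.122) and Sdk2 (0.13), which like it rose mainly at 30 µg/kg. Nfe2l2 was nearest to Dsp (0.0376), Notch1 (0.04) and Mgp (0.0449), and all 3 were called at 30 µg/kg. The small profiles of Txnrd1 and Srxn1 had neighbours at 0.0188 to 0.0283 (Il17rd, Nedd9 and Rps20 for Txnrd1, Tmod3, Atf7 and Rbpj for Srxn1), of which edgeR called Rps20 alone at 30 µg/kg.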

How the data were processed

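Right kidney RNA of 40 mice was analysed from the deposited files, which hold counts of reads per Ensembl gene for each library in unstranded and stranded columns. Per the submitters' processing notes, FastQC 0.11.7, Trimmomatic 0.39, STAR 2.7.3a and DESeq2 were used. These notes name the builds GRCm39 and mm10 without giving their roles. The deposited unstranded counts were used as they stand. The 2 stranded columns held near-equal shares (49% to 49.6% of their reads in the last column). Rows that name no gene (1.41% to 2.66% unmapped, 6.98% to 9.7% multimapping, 5.28% to 7.27% outside features and 5.4% to 5.98% ambiguous) stayed out of library sizes. Symbols were found for 52083 of 55359 identifiers. Symbols and exon lengths came from the GENCODE annotation of GRCm38.

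Genes were filtered with filterByExpr, scaled by TMM (factors 0.966 to 1.09) and tested in R 4.3.3 with edgeR 4.0.16 (robust quasi-likelihood fit, 8 groups, biological coefficient of variation 17.1%), with Benjamini-Hochberg adjustment over 17345 genes. The trend used dose rank. Steps were tested on simulated data. Alternatives were size factors by RLE, DESeq2 1.42.0, no filter, the other strand column, a run of label numbers as covariate, the groups compared alone, and each library left out. Nothing ties replicates across groups, and no replicate pair agreed within counting noise (chi-square per degree of freedom 7.34 to 87.9 over 80 pairs). The edgeR p-values set a difference between groups against the spread between these mice within groups. In the main fit that spread was estimated over all 8 groups together. The genes named are all 10 members, up to 4 genes with the smallest p-values at 30 µg/kg of each pathway list, 3 genes of similar profile per called member, and Cyp1a1 for reference. Keap1, Mafg, Mafk, Bach1, Slc3a2 and Akr1a1 were named beyond that rule, after their values were seen. Members and lists were chosen with earlier results of these data known.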

Additional observations from a re-analysis of the deposited data

Results flagged for a closer look

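Of 79 groups of 5 libraries with differing values, 5 held 1 value set apart from the other 4 by Dixon's criterion, where chance gives about 4. Nfe2l2 was 127 CPM in replicate 5 of the 0.03 µg/kg group, with the next mouse at 104 CPM. Aldh3a1 was 0.882 CPM in replicate 3 of the 0.3 µg/kg group, below the next value of 2.1 CPM. The other 3 were Gpx2 values from few reads: replicate 2 of the 0.03 µg/kg group (0.0639 CPM) and replicate 4 of the 0.3 µg/kg group (0.185 CPM), each the sole library of its group above 0, and replicate 2 of the 30 µg/kg group (0.339 CPM, the next being 0.0561 CPM).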

How the results depend on the processing

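Calls of Nqo1, Aldh3a1 and Nfe2l2 at 30 µg/kg held under every alternative run, including each library left out. With the 2 groups alone in the fit, the members called were 0 at 1 µg/kg, 3 at 30 µg/kg and 0 between 30 and 10 µg/kg, and pathway genes called at 30 µg/kg were 20. Such a fit has fewer libraries to estimate the spread, and it does not share the spread of the other groups. Hmox1, Txnrd1 and Srxn1, whose calls at 30 µg/kg were lost, had SDs of 106, 34.9 and 11.8 CPM there, against 4.61, 5.9 and 5.26 CPM in vehicle. The part of either in the lost calls was not tested. With the other strand column 0 members were called at 1 µg/kg. DESeq2 called 2 members between 30 and 10 µg/kg (Aldh3a1 and Hmox1). Without the 30 µg/kg group 3 members had a trend (Nqo1, Aldh3a1 and Nfe2l2). Without vehicle replicates 1 and 2 together, an alternative chosen after seeing the data, 0 members were called at 1 µg/kg and 1 at 3 µg/kg, Gclm at 30 µg/kg reversed to -0.11, and 2 pairs passed by Pearson's r (Gclc with Gclm, and Nqo1 with Srxn1) but not by Spearman's rho (permutation, adjusted p = 0.0694 and 0.0722). The cause of these shifts was not tested. With no filter on low counts Txnrd1 (adjusted p = 0.101) and Srxn1 (0.0763) were not called by edgeR at 30 µg/kg. Leaving out single libraries gave 0 to 1 member at 1 µg/kg and 0 to 2 between 30 and 10 µg/kg. No paired analysis was possible because the labels give no replicate number shared between groups. Reads per library limit Slc7a11 and Gpx2, and the scarce Aldh3a1 at low doses.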
